A study of Trichoderma reesei with 17 samples.

Results

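The group described here was made up of 7 of the 9129 genes in the table of the filamentous fungus Trichoderma reesei. 5 were listed by their JGI protein ID: cel61b (120961), cel61a (73643), the swollenin gene swo1 (123992), cip1 (73638) and cip2 (123940). The remaining 2, proteins 22129 and 27554, were taken because their deposited description holds the family name GH61. The rule itself uses no expression value, although the genes were listed with earlier results of these data known. All 7 genes passed the filter on low counts, which 8506 of the 9129 genes passed.

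These genes code for proteins that act beside the classical cellulases. The family first called GH61 and now AA9 holds copper-dependent polysaccharide monooxygenases, which cut cellulose chains by oxidation at the crystalline surface and need an electron donor. Swollenin is an expansin-like protein with a cellulose-binding module of family CBM1 and is known for loosening cellulose fibres without clear hydrolysis. CIP1 also carries a CBM1, and its activity is not settled, whereas CIP2 is a glucuronoyl esterase of family CE15, which cleaves ester links between lignin and glucuronoxylan. XYR1 is the zinc-cluster activator of the cellulase and xylanase genes of this fungus.

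Messenger RNA of mycelium was sequenced from the parental strain QM9414, labelled wild type, and from Δxyr1, a strain made by deleting xyr1. Cellulose cultures held 1% cellulose, and their RNA came from 24, 48 and 72 h in QM9414 but from 8 and 24 h in Δxyr1, so that strain and culture age cannot be told apart in this carbon source. The study's methods also describe a glycerol pre-culture of Δxyr1 before its transfer to cellulose, whereas the series description places that step before sophorose. Where it holds for cellulose, the pre-culture cannot be told apart from the strain either. Sophorose, a glucose disaccharide that induces cellulases, was given at 1 mM for 2, 4 and 6 h to mycelium that the description gives as pre-grown on glycerol, and glucose cultures held 2% glucose for 24 and 48 h, with the same times in both strains. Within a strain, carbon source therefore cannot be told apart from these times, or from a pre-culture that differed between the groups. Every group had 3 libraries, other than QM9414 in glucose with replicates 1 and 3, and each library pooled its time points. Read counts from whole mycelium do not separate fewer expressing hyphae from less RNA per hypha.

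The 17 libraries held 7014100 to 29056712 counts, with a median of 14468110. One gene, protein 48266, took 1.68% to 35.0% of the counts of a library, and the highest shares were in Δxyr1 sophorose replicate 3 (35.0%) and Δxyr1 glucose replicate 1 (24.9%). The xyr1 gene itself had a mean of 622 CPM (counts scaled to library size with TMM factors) in QM9414 and 10.9 in Δxyr1 in cellulose. In sophorose its means were 2560 and 86.2 CPM, and in glucose 9.61 and 3.72 CPM. The Δxyr1 libraries in sophorose held 1214 to 1300 xyr1 counts each, and gene totals do not show whether these reads lie outside the deleted part. From a view of the aligned reads, the study reports no xyr1 coverage in Δxyr1 on any carbon source, whereas the deposited counts hold such reads. The fall of xyr1 passed the test in cellulose and in sophorose, while in glucose the edgeR adjusted p was 0.0643.

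Calls were made with the quasi-likelihood test of edgeR over all 8506 genes and needed both an adjusted p no greater than 0.05 and at least a doubling or halving, which is 1 on the log2 scale. In QM9414, 6 of the 7 genes were called higher in cellulose than in glucose, against 19.2% of all genes tested. The same count, 6 of 7, was called higher in sophorose than in glucose, against 19.6% of all genes. In Δxyr1 compared with QM9414, 5 of 7 were called lower in cellulose, where 10.3% of all genes were, and 5 of 7 in sophorose, where 6.47% were. The 5 genes were in both cases cel61b, cel61a, swo1, cip1 and cip2. Their strain difference was among the larger ones: cel61b ranked 2 from the lowest of 8506 genes in cellulose, cip1 8, cel61a 14, cip2 20 and swo1 39. Neither of the other GH61 genes was called in those comparisons.

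**Figure D1:**
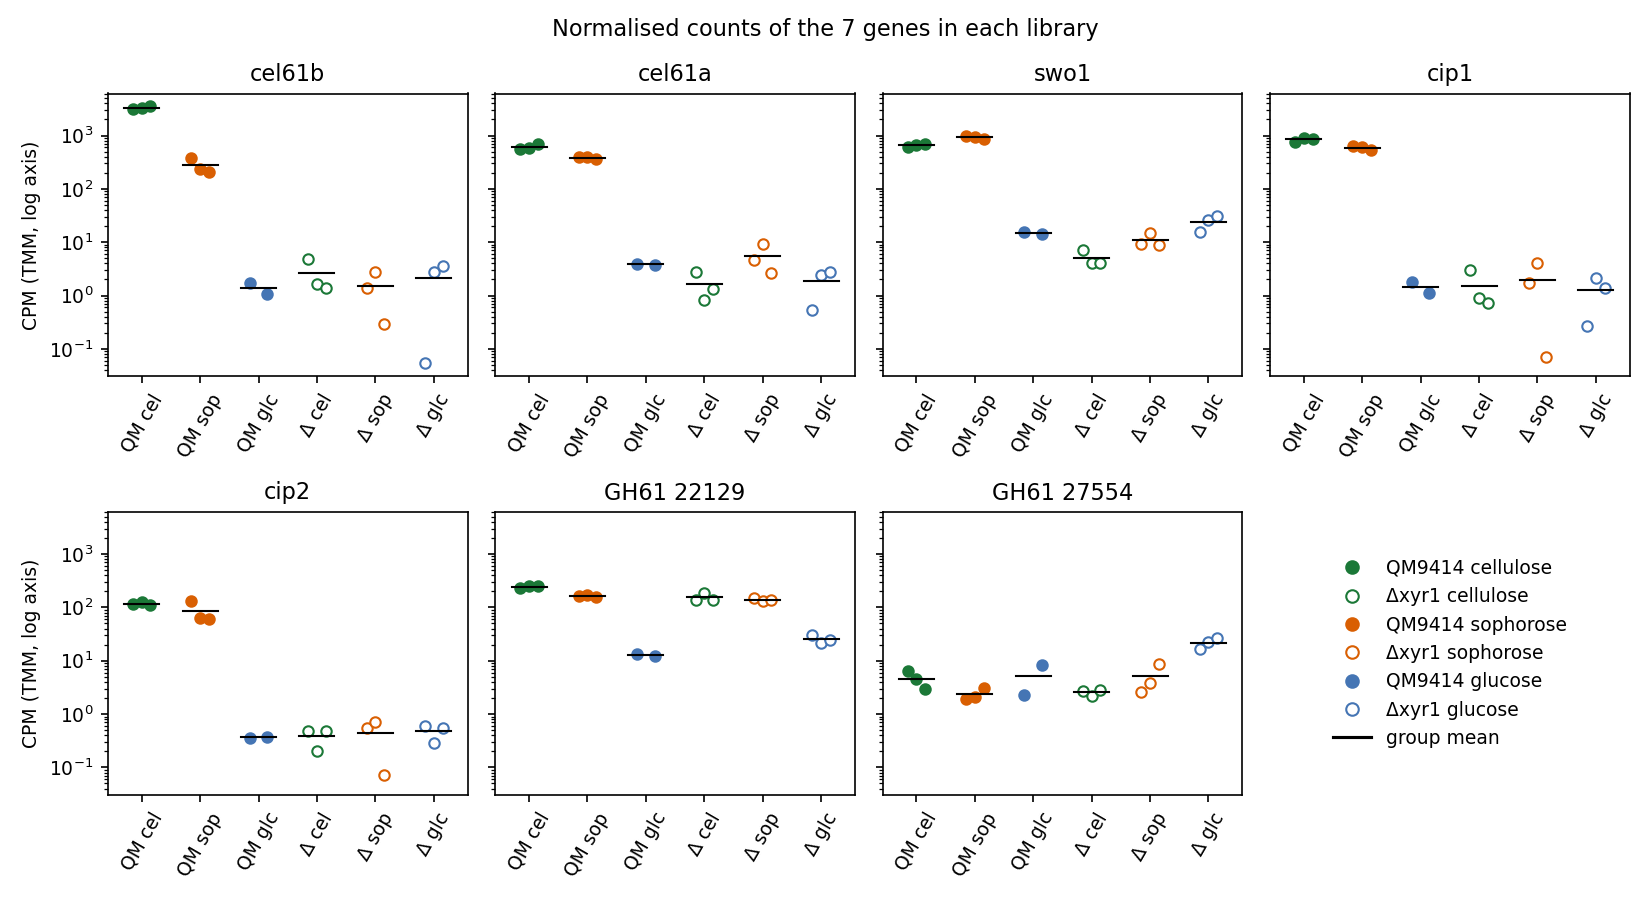
CPM of each of the 7 genes in each of the 17 libraries on a log axis, with QM9414 as filled and Δxyr1 as open points, coloured by carbon source, and the group mean as a bar. For cel61b, cel61a, swo1, cip1 and cip2 every QM9414 library in cellulose or sophorose lies above every other library, whereas protein 22129 lies above 130 CPM in both strains in these carbon sources and protein 27554 is highest in Δxyr1 in glucose.

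The monooxygenase gene cel61b reached the highest level of the 7. Its levels in QM9414 in cellulose were 3109, 3217 and 3518 CPM. In sophorose they were 385, 231 and 210 CPM, and in glucose 1.72 and 1.05 CPM. The 3 ranges did not overlap, and the cellulose level placed cel61b at rank 18 among all tested genes. Cellulose exceeded glucose by a log2 fold change of 11.25 (standard error, SE, 1.24, edgeR adjusted p = 1.8e-06), and sophorose exceeded glucose by 7.67 (SE 1.09, adjusted p = 1.8e-05). Among the 7 genes cel61b alone was called different between the inducers in QM9414, where 10.2% of all genes were called lower in sophorose. The inducer cultures also differed in time. The level in sophorose was 8.39% of that in cellulose, a log2 fold change of −3.58 (SE 0.714, adjusted p = 0.00105). The xyr1 transcript went the other way, with a log2 fold change of 2.04 from cellulose to sophorose (adjusted p = 5.1e-04).

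In Δxyr1, cel61b had 41, 24 and 17 counts in the cellulose libraries, which correspond to 4.86, 1.65 and 1.39 CPM. In sophorose its counts were 20, 44 and 4, and in glucose 1, 29 and 46. These libraries overlapped with each other and with QM9414 in glucose. The Δxyr1 mean was 0.0802% of the QM9414 mean in cellulose and 0.544% in sophorose. The log2 fold changes were −10.34 (SE 0.982, edgeR adjusted p = 7.3e-07) and −7.50 (SE 0.888, adjusted p = 1.5e-05). In glucose the strain difference was 0.59 (SE 0.943, adjusted p = 0.75). The lowest counts, 1 and 4, came from the glucose and sophorose libraries with the largest shares of protein 48266, and the part of that share in the low counts was not tested.

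The second monooxygenase gene, cel61a, was expressed more evenly on the inducers. In QM9414 its levels were 558, 593 and 684 CPM in cellulose and 390, 399 and 358 CPM in sophorose. Its glucose levels were 3.88 and 3.77 CPM. Cellulose lay above sophorose in every library, but the log2 difference of −0.68 (SE 0.389) did not pass the test (edgeR adjusted p = 0.191). Against glucose the log2 fold change was 7.32 (SE 0.632, adjusted p = 1.3e-07) in cellulose and 6.64 (SE 0.614, adjusted p = 2.0e-07) in sophorose.

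In Δxyr1, cel61a was at 2.73, 0.824 and 1.30 CPM in cellulose and at 4.54, 9.17 and 2.67 CPM in sophorose. In glucose it was at 0.533, 2.42 and 2.76 CPM. The strain difference was a log2 fold change of −8.65 (SE 0.572, edgeR adjusted p = 1.6e-08) in cellulose and −6.12 (SE 0.494, adjusted p = 3.4e-07) in sophorose. The remaining sophorose level was called above that in cellulose, by 1.85 (SE 0.518, adjusted p = 0.00697), and above that in glucose, by 1.60 (SE 0.494, adjusted p = 0.0106), although the libraries overlapped in both comparisons. Both calls were lost without Δxyr1 sophorose replicate 2, the highest library, at adjusted p = 0.0555 and 0.0951. The call against glucose was also lost in the fit of only the groups compared (1.54, adjusted p = 0.0619). The sophorose mean of Δxyr1 was 1.43% of that of QM9414. In glucose the mean was 1.91 CPM in Δxyr1 and 3.83 CPM in QM9414, with no overlap between the strains. This difference of −1.08 (SE 0.553, adjusted p = 0.254) was not called, but it was with library totals alone as the scaling, at −1.62 (adjusted p = 0.0468).

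The swollenin gene swo1 was the member whose level in QM9414 was higher in sophorose than in cellulose. Its levels were 997, 955 and 875 CPM in sophorose and 610, 669 and 703 CPM in cellulose. The libraries did not overlap, yet the log2 difference of 0.51 (SE 0.246) did not pass the test (edgeR adjusted p = 0.117). In glucose swo1 kept a level of 15.5 and 14.0 CPM, above the 0.361 to 3.88 CPM of the 4 other listed genes. The log2 fold change against glucose was 5.49 (SE 0.359, adjusted p = 7.0e-09) in cellulose and 6.00 (SE 0.368, adjusted p = 2.8e-09) in sophorose.

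Glucose, the lowest of the carbon sources for swo1 in QM9414, was the highest in Δxyr1, while sophorose stayed above cellulose. Its Δxyr1 levels in cellulose were 7.00, 4.05 and 4.16 CPM. Those in sophorose were 9.22, 14.8 and 9.01 CPM, and with glucose they reached 15.5, 26.2 and 31.3 CPM. The 3 groups did not overlap. In Δxyr1, 2 of the 7 genes were called lower in cellulose than in glucose, against 21.2% of all genes, and 1 was called higher, against 23.0%. For swo1 this difference was −2.28 (SE 0.276, edgeR adjusted p = 2.5e-06). In sophorose it lay below glucose, at −1.14 (SE 0.258, adjusted p = 0.00126) and above cellulose by 1.14 (SE 0.274, adjusted p = 0.00255). The call against glucose passed the adjusted p but not the fold threshold without Δxyr1 glucose replicate 3, at −0.87, and was lost with library totals alone, at −0.78 (adjusted p = 0.061). The call against cellulose was lost with library totals alone, at 0.70 (adjusted p = 0.118). It also fell under the fold threshold without Δxyr1 cellulose replicate 2, at 0.996, and without Δxyr1 sophorose replicate 2, at 0.87. The strain difference was −7.05 (SE 0.327, adjusted p = 5.2e-10) in cellulose and −6.42 (SE 0.313, adjusted p = 1.7e-09) in sophorose. In glucose it was 0.72 (SE 0.290, adjusted p = 0.148), with overlapping libraries, and it was called at 1.01 without Δxyr1 glucose replicate 1.

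Of the genes for cellulose-induced proteins, cip1 was the more abundant. Levels in QM9414 were 771, 898 and 857 CPM in cellulose, 627, 612 and 528 CPM in sophorose, and 1.81 and 1.10 CPM in glucose. Those of cip2, the esterase gene, were 116, 128 and 109 CPM in cellulose, 134, 63.7 and 60.2 CPM in sophorose, and 0.361 and 0.367 CPM in glucose. Sophorose replicate 1 was high for cip2 and lay above all cellulose libraries, while the other sophorose libraries lay below them. Neither gene was called different between the inducers, at −0.52 (SE 0.542, edgeR adjusted p = 0.496) for cip1 and −0.45 (SE 0.280, adjusted p = 0.225) for cip2. Against glucose cip1 was higher by a log2 fold change of 9.22 (SE 0.975) in cellulose and 8.70 (SE 0.957) in sophorose, with adjusted p of 1.2e-06 and 1.3e-06. For cip2 these values were 8.30 (SE 0.540, adjusted p = 6.8e-09) and 7.85 (SE 0.536, adjusted p = 8.3e-09).

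In Δxyr1 few reads of either gene were left. Counts of cip1 were 25, 13 and 9 in cellulose, 25, 64 and 1 in sophorose, and 5, 22 and 18 in glucose. Counts of cip2 were 4, 3 and 6 in cellulose, 8, 11 and 1 in sophorose, and 11, 3 and 7 in glucose. At these counts no order of the carbon sources was detectable in Δxyr1, and no difference between them was called for either gene. The strain difference of cip1 was −9.21 (SE 0.813, edgeR adjusted p = 3.6e-07) in cellulose and −8.20 (SE 0.766, adjusted p = 1.5e-06) in sophorose. For cip2 it was −8.28 (SE 0.459, adjusted p = 2.6e-09) and −7.54 (SE 0.433, adjusted p = 8.8e-09). The Δxyr1 means were between 0.182% and 0.515% of the QM9414 means for these genes in both inducers. In glucose the strain differences were −0.28 (SE 0.896, adjusted p = 0.884) for cip1 and 0.43 (SE 0.752, adjusted p = 0.775) for cip2.

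**Figure D2:**
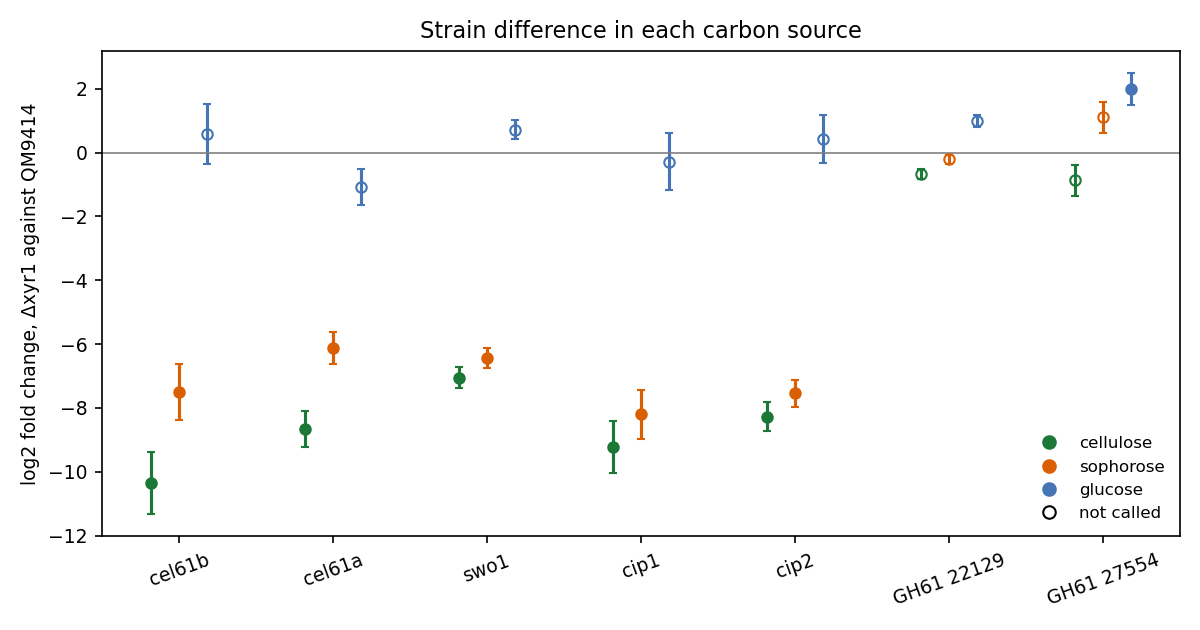
Log2 fold change of Δxyr1 against QM9414 for each of the 7 genes in cellulose, sophorose and glucose, with bars of 1 standard error and open points where the gene was not called. The 5 listed genes lie between −10.34 and −6.12 in cellulose and sophorose and between −1.08 and 0.72 in glucose, and proteins 22129 and 27554 lie within 2.00 of 0 in every carbon source.

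Protein 22129, a further GH61 gene, rose on the inducers in both strains. In QM9414 it was at 232, 253 and 251 CPM in cellulose, at 161, 167 and 156 CPM in sophorose, and at 13.5 and 12.2 CPM in glucose. Its Δxyr1 levels on cellulose were 138, 190 and 136 CPM, with 152, 131 and 135 CPM on sophorose and 30.9, 21.0 and 24.7 CPM on glucose. The Δxyr1 mean was 63.0% of the QM9414 mean in cellulose and 86.1% in sophorose. Cellulose exceeded glucose by a log2 fold change of 4.25 (SE 0.206, edgeR adjusted p = 3.2e-10) in QM9414 and by 2.59 (SE 0.160, adjusted p = 1.3e-09) in Δxyr1. For sophorose the values were 3.65 (SE 0.199, adjusted p = 8.7e-10) and 2.44 (SE 0.159, adjusted p = 3.6e-09). In the Δxyr1 comparison of sophorose with glucose, 2 of 7 genes were called higher, 22129 and cel61a, against 19.4% of all genes. Another 2, swo1 and 27554, were called lower, against 16.6%.

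The strain difference of 22129 in cellulose was small but had an adjusted p below the threshold, at −0.67 (SE 0.150, adjusted p = 0.00235), with no overlap between the strains. It fell short of the fold threshold. In sophorose it was −0.22 (SE 0.149, adjusted p = 0.249). In glucose the sign was opposite, and 22129 was higher in Δxyr1 by 0.99 (SE 0.180, adjusted p = 0.00702), just under the fold threshold. It crossed that threshold without Δxyr1 glucose replicate 2 (1.13), without Δxyr1 glucose replicate 3 (1.01) and without Δxyr1 sophorose replicate 3 (1.01). It also crossed with RLE factors (1.01), with upper-quartile factors (1.00) and in DESeq2 (1.02). With library totals alone as the scaling, it was 0.38, because the TMM factors of the Δxyr1 glucose libraries were lower, 0.646 to 0.771, than the 1.00 and 1.12 of QM9414 glucose.

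Protein 27554, the last GH61 gene, followed none of these patterns. Its levels in QM9414 were 6.31, 4.57 and 2.95 CPM in cellulose, 1.88, 2.04 and 3.05 CPM in sophorose, and 2.26 and 8.23 CPM in glucose. No carbon source stood apart, and the glucose replicates differed from each other. Sophorose against glucose in QM9414 was not called, but it was without QM9414 glucose replicate 1 (−1.81, edgeR adjusted p = 0.00758), without Δxyr1 sophorose replicate 1 (−1.21) or 3 (−1.19), without both libraries rich in protein 48266 (−1.16) and in DESeq2 (−1.15). In Δxyr1 the levels were 2.73, 2.20 and 2.77 CPM in cellulose and 2.55, 3.85 and 8.79 CPM in sophorose. In glucose they were 16.9, 22.1 and 26.3 CPM, above every other library of the series. Within Δxyr1, cellulose lay below glucose by a log2 fold change of −3.09 (SE 0.478, edgeR adjusted p = 3.2e-05) and sophorose by −2.11 (SE 0.438, adjusted p = 6.2e-04). Without Δxyr1 sophorose replicate 1, sophorose was called above cellulose in Δxyr1, at 1.30 (adjusted p = 0.0359).

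In glucose 27554 was the only one of the 7 genes called between the strains, where 2.60% of all genes were called in either direction and 1.88% were called higher. It was higher in Δxyr1 by 2.00 (SE 0.502, adjusted p = 0.0311). The call was lost in the fit of only the groups compared (2.03, adjusted p = 0.155), without QM9414 glucose replicate 1 (1.40, adjusted p = 0.278), without Δxyr1 glucose replicate 2 (2.01, adjusted p = 0.0669) and without Δxyr1 glucose replicate 3 (1.83, adjusted p = 0.0994). In cellulose the strain difference was −0.86 (SE 0.488, adjusted p = 0.175). In sophorose it was 1.10 (SE 0.479, adjusted p = 0.0722) and was called without QM9414 glucose replicate 1, without QM9414 glucose replicate 3 or without Δxyr1 sophorose replicate 1, at 1.10, 1.13 and 1.42. DESeq2 also called it, at 1.09 (adjusted p = 0.0425).

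**Figure D3:**
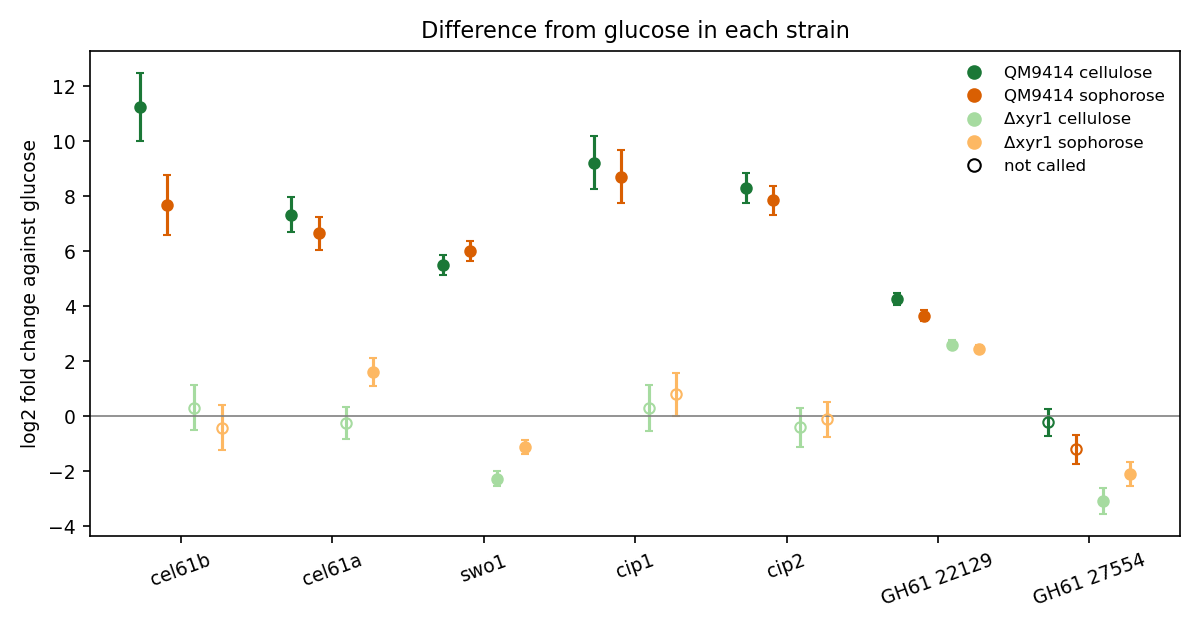
Log2 fold change of cellulose and sophorose against glucose for each of the 7 genes in QM9414 (dark) and Δxyr1 (light), with bars of 1 standard error and open points where the gene was not called. In QM9414 6 genes lie between 3.65 and 11.25, whereas in Δxyr1 protein 22129 lies at 2.59 and 2.44, cel61a in sophorose at 1.60, and swo1 and 27554 below 0.

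Levels were compared between the genes as CPM per kb of gene span, which includes introns and runs from 1050 to 1789 bp. In QM9414 in cellulose the mean levels were 2694 CPM per kb for cel61b, 715 for cip1, 453 for cel61a, 369 for swo1, 160 for 22129, 81.8 for cip2 and 4.39 for 27554. In sophorose the order was led by swo1 at 527 CPM per kb and cip1 at 500, followed by cel61a at 283, cel61b at 226, 22129 at 105, cip2 at 59.7 and 27554 at 2.22. Swo1 and cip1 lay within 1 SD of each other in sophorose. The SD of cel61b in sophorose was 78.6 CPM per kb, so its place beside cel61a was not resolved. Together the 7 genes took 0.554% to 0.673% of all counts in the QM9414 cellulose libraries and 0.253% to 0.330% in sophorose. In Δxyr1 they took 0.0181% to 0.0261% in cellulose and 0.00822% to 0.0197% in sophorose, most of it from 22129. These shares are not TMM-scaled, and the lowest was in Δxyr1 sophorose replicate 3, where protein 48266 took 35.0% of counts. With TMM scaling the 7 genes summed to 171, 166 and 156 CPM in the Δxyr1 sophorose libraries.

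Whether the strain effect differed between carbon sources was tested as an interaction. The effect was lower in cellulose than in glucose for 7 of 7 genes, against 11.3% of all genes. For 22129 and 27554 this did not reflect a called fall in cellulose, where their strain differences were −0.67 and −0.86. In glucose both were higher in Δxyr1, by 0.99 and 2.00, and only the latter was called. In sophorose it was lower than in glucose for 6 of 7, against 5.48%, and 27554, at −0.90 (SE 0.683, edgeR adjusted p = 0.377), was the exception. The values in cellulose ran from −10.94 (SE 1.36) for cel61b to −1.66 (SE 0.234, adjusted p = 1.1e-04) for 22129. With library totals alone 22129 was not called in either, at −0.85 (adjusted p = 0.107) in cellulose and −0.98 (adjusted p = 0.172) in sophorose. These comparisons share their glucose libraries.

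Between sophorose and cellulose the log2 strain effect was smaller in size in sophorose for 2 of the listed genes. The interaction was 2.53 (SE 0.649, edgeR adjusted p = 0.00539) for cel61a and 2.85 (SE 1.06, adjusted p = 0.0390) for cel61b. For cel61b the Δxyr1 libraries held only 17 to 41 counts in cellulose and 4 to 44 in sophorose. Its log2 difference between the inducers was −0.73 in Δxyr1 and −3.58 in QM9414, so the interaction came mostly from the QM9414 levels. The strain effect in cellulose also carries the difference in culture age. With 27554, at 1.96 (SE 0.684, adjusted p = 0.0294), 3 of 7 genes were called higher, against 16.8% of all genes. For swo1, cip1, cip2 and 22129 the interaction lay between 0.45 and 1.02 and was not called. The cel61a call held at adjusted p of at most 0.0271 under every alternative run. That of cel61b was lost in DESeq2 (adjusted p = 0.0774), with library totals alone (0.0672), with a replicate block (0.0544) and without any one of 10 libraries, among them Δxyr1 sophorose replicate 2 (2.00, adjusted p = 0.198). The 27554 call was lost with library totals alone (1.14, adjusted p = 0.124), without both libraries rich in protein 48266 (1.26, adjusted p = 0.108) and without any one of 5 libraries, with the lowest value without Δxyr1 sophorose replicate 3 (1.24, adjusted p = 0.12). The libraries concerned were QM9414 cellulose 2 and 3, QM9414 glucose 3, QM9414 sophorose 2 and 3, Δxyr1 cellulose 2 and 3, Δxyr1 glucose 2 and Δxyr1 sophorose 1 and 2 for cel61b. For 27554 they were QM9414 cellulose 1, QM9414 sophorose 1 and 2, Δxyr1 cellulose 2 and Δxyr1 sophorose 3. For cip1 a call appeared when both libraries rich in protein 48266 were left out, at 1.53 (adjusted p = 0.0351). Without Δxyr1 sophorose replicate 2 the cip1 value was −0.12 (adjusted p = 0.933).

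Across the 17 libraries, Pearson's r of log2(CPM + 1) between pairs of the 5 listed genes ran from 0.923 to 0.992. Between these genes and 22129 it ran from 0.415 to 0.586, and with 27554 from −0.374 to −0.202. The libraries share strain, carbon source and depth, so these values describe the pattern over groups. Genes most like cel61b were the xylanase genes xyn3 (protein 120229, r = 0.994) and xyn2 (protein 123818, r = 0.992), followed by the GH59 gene 111849 (r = 0.991). Those most like cel61a were the GH30 galactanase gene 110894 (r = 0.993), cip1 (r = 0.992) and the β-xylosidase gene bxl1 (protein 121127, r = 0.990). For swo1 they were the endoglucanase gene egl5 (r = 0.991), the GH109 gene 56840 (r = 0.989) and the GH30 xylanase gene 69276 (r = 0.988). For cip1 they were the endoglucanase genes egl3 (r = 0.995) and egl2 (r = 0.994) and bxl1 (r = 0.993). For cip2 they were the CE16 gene 121418 (r = 0.997), the acetyl xylan esterase gene axe1 (r = 0.995) and 69276 (r = 0.994). All of these were chosen as the highest of the genes tested, so high r was set by the choice.

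In the RefSeq gene table several members lay beside one another or beside other carbohydrate-active genes. These neighbours were looked up after the members' values were known. Starting from axe1, which codes for an acetyl xylan esterase with a CBM1, the order was axe1, cip1 and cel61a, with 1702 bp between the first pair and 550 bp between cip1 and cel61a. The strain difference of axe1 was −9.38 (edgeR adjusted p = 1.8e-09) in cellulose and −6.68 (adjusted p = 1.8e-08) in sophorose. On the far side of axe1, the expansin-like gene 102500 was at −2.58 (adjusted p = 0.104) and 0.97 (adjusted p = 0.532). The gene next to cel61a on its other side, 102504, was not tested, and the one after it, 54230, was higher in Δxyr1 in cellulose, at 2.06 (adjusted p = 1.2e-05). Levels thus changed in opposite directions within this stretch.

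Swollenin lay 2105 bp from the GH59 gene 111849, whose strain difference was −6.79 in cellulose and −4.14 in sophorose (edgeR adjusted p = 1.5e-09 and 1.7e-07). On its other side cbh1, the gene of the main cellobiohydrolase, was the second gene, 8565 bp away, at −8.76 and −8.87 (adjusted p = 2.5e-04 and 2.8e-04). Gene 69483 between them was at −0.02 and −0.26 (adjusted p = 0.979 and 0.252). The GH30 xylanase gene 69276 lay 2018 bp from cip2, at −6.62 and −6.03 (adjusted p = 4.2e-10 and 8.4e-10). On the other side of cip2, 4926 bp away, the GH2 β-mannosidase gene 69245 did not differ between the strains. It was at 0.33 and 0.34 (adjusted p = 0.186 and 0.157), although cellulose exceeded glucose by 7.05 in QM9414 (adjusted p = 4.0e-10). Beside cel61b both adjacent genes were not tested, and the AAA ATPase gene 76374, 5056 bp away, was at −5.34 and −3.22 (adjusted p = 3.1e-08 and 7.4e-07). Unlike cel61b, gene 76374 was lower in cellulose than in glucose in QM9414, at −1.40 (adjusted p = 9.7e-05). On the other side of cel61b, 6481 bp away, gene 105465 was higher in Δxyr1 in cellulose, at 2.54 (adjusted p = 3.6e-04). In sophorose it was at 0.25 (adjusted p = 0.566).

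**Figure D4:**
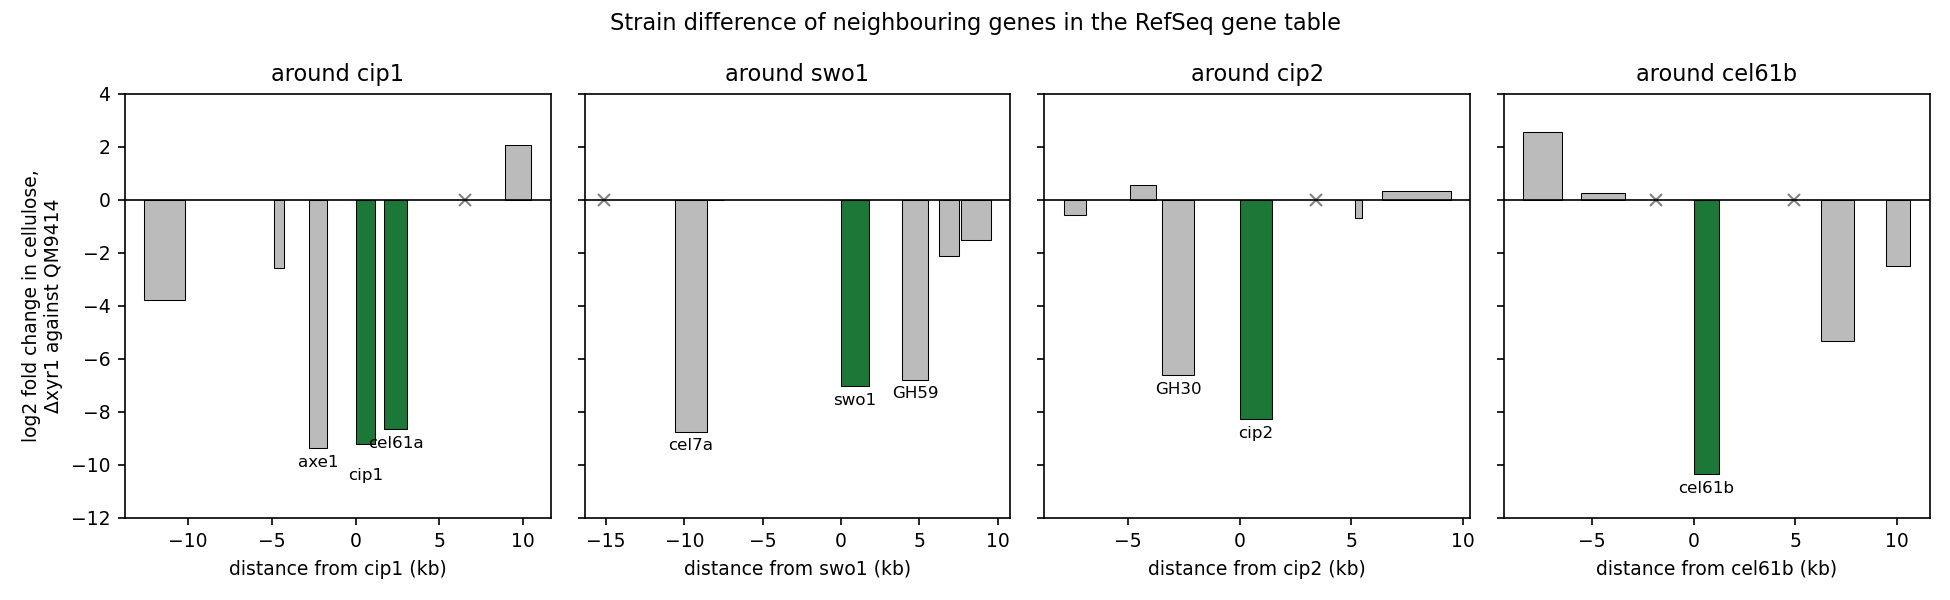
Log2 fold change of Δxyr1 against QM9414 in cellulose for the 3 genes on either side of cip1, swo1, cip2 and cel61b, at their distance in kb from the start of the named gene, with bar width as gene span, members in green, other genes in grey and a cross where a gene was not tested. Beside the members, axe1 (−9.38), cel7a (the RefSeq name of cbh1, −8.76), the GH59 gene (−6.79), the GH30 gene (−6.62) and gene 76374 (−5.34, to the right of cel61b, unlabelled) have the lowest values.

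The rest of the cellulose-degrading set gave a frame for these values. All 6 genes of a cellulase list (cbh1, cbh2, egl1, egl2, egl3 and egl5) were called lower in Δxyr1 in cellulose, with a median log2 fold change of −8.91, and in sophorose, with −8.02, beside medians over all genes of −0.02 and 0.03. In glucose 0 of 6 were called, with a median of −0.08. The 7 genes described here had medians of −8.28, −6.42 and 0.59 in the same order. Of 3 other genes described as holding a CBM1, cbh2 and axe1 were called lower in both inducers. The other, 68347, was at 0.50 (edgeR adjusted p = 0.185) in cellulose and −0.996 (adjusted p = 0.0136, under the fold threshold) in sophorose.

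Related genes without this response were found among the expansins. Of 9 genes described as expansin-like or swollenin, 3 were called lower and 1 higher in Δxyr1 in cellulose, with a median of −1.51, and in sophorose 1 was called higher, with a median of 0.25. Over all genes the share called lower in cellulose was 10.3%, and the share called higher was 8.29% in cellulose and 10.8% in sophorose. The lowest called was the expansin gene 23115, at −2.02 (edgeR adjusted p = 4.1e-07). The one against the majority was 122375, at 1.20 (adjusted p = 0.00217) in cellulose and 1.96 (adjusted p = 0.0266) in sophorose. That sophorose call rests on few reads, with 5 counts summed over the QM9414 libraries and 20 over those of Δxyr1. The gene described as swollenin 2, 111874, was at 0.0031 (adjusted p = 0.995) and 0.14 (adjusted p = 0.683). Its levels were low in both strains, with means of 0.484 CPM in QM9414 and 0.469 in Δxyr1 in cellulose. In sophorose they were 1.66 and 1.85 CPM. Possible electron donors for the monooxygenases were taken as the 11 genes whose description holds cellobiose dehydrogenase, GMC or AA3. AA3 is a family of flavin-dependent oxidoreductases. Of these, 2 were called lower and 1 higher in cellulose, and 2 lower and 2 higher in sophorose, where 6.47% and 10.8% of all genes were called lower and higher. Their medians were 0.12 and 0.29, and their values ran from −2.35 to 1.91 in cellulose and from −1.44 to 2.23 in sophorose. The AA3 gene 123978 was higher in Δxyr1 on both inducers, at 1.91 (adjusted p = 1.2e-05) and 1.40 (adjusted p = 2.6e-04), with means of 255 CPM in QM9414 and 961 in Δxyr1 in cellulose. Gene 60206 of the same list went the other way in cellulose, with means of 6.94 CPM in QM9414 and 1.43 in Δxyr1.

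One more gene, protein 76065, is described as AA9 without the older family name, so the rule did not take it. Its mean level in QM9414 was 80.9 CPM in cellulose, 138 CPM in sophorose and 84.7 CPM in glucose, beside 33.5, 42.2 and 79.6 CPM in Δxyr1. Unlike the 5 listed genes it was not higher on cellulose than on glucose in QM9414, at −0.07 (edgeR adjusted p = 0.767). It was lower in Δxyr1, at −1.28 (adjusted p = 1.3e-05) in cellulose and −1.71 (adjusted p = 1.6e-06) in sophorose, and at −0.09 (adjusted p = 0.801) in glucose. With cel61a, cel61b, 22129 and 27554 this made 5 genes of the family, which differed from each other in level, carbon source and strain difference.

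The comparison of sophorose with cellulose within Δxyr1 called 2 of 7 genes higher, cel61a and swo1 as given above, against 13.5% of all genes. For cel61b the value was −0.73 (SE 0.817, edgeR adjusted p = 0.47) and for 22129 it was −0.15 (SE 0.149, adjusted p = 0.406).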

How the data were processed

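The authors aligned paired reads to the T. reesei version 2.0 genome and deposited raw counts of reads per gene, 1 column per library. Their processing notes name TopHat2 2.0.4, SAMtools 0.1.19, HTSeq 0.6.0 and DESeq2 1.6.3. The normalized counts and fold changes they deposited were not used, apart from the gene descriptions, which cover 8567 genes.

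Members and lists were chosen with earlier results of these data known. Raw counts of 17 libraries in 6 groups were fitted in 1 model with edgeR 4.0.16 in R 4.3.3 (TMM factors, quasi-likelihood test, Benjamini-Hochberg). Genes needed at least 10 counts in at least 2 libraries. The common biological coefficient of variation was 0.205. The standard error is the log2 fold change divided by the square root of F. CPM values are TMM-scaled. All 7 members, xyr1, and the 3 genes most correlated with each listed member were named by rule, and list members by highest, lowest and opposite calls. The AA9 gene 76065, AA3 gene 123978, swollenin 2, 68347 and the neighbours were named after their values were seen.

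Alternatives were RLE, upper-quartile or no scaling factors, DESeq2 1.42.0, no filter, a filter of 1 CPM in 3 libraries, only the groups compared, a replicate block, no fold threshold and each library left out. Leaving out both libraries rich in protein 48266 was added after seeing the data. Replicates were labelled biological, and all pairs differed beyond sampling noise. Positions came from the RefSeq table (assembly v2.0 of strain QM6a, 9072 genes matched), which lists genes in order but names no scaffold, so gaps are given rather than coordinates, and gene spans stood in for coding lengths. QM9414 glucose replicate 2 was not analysed here. Scripts were tested on simulated data.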

Additional observations from a re-analysis of the deposited data

Results flagged for a closer look

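The results listed here were picked out because the strain effect differed between carbon sources by the interaction term of the edgeR fit. Between cellulose and glucose the differences in log2 strain effect were −10.94 for cel61b, −7.57 for cel61a, −7.76 for swo1, −8.93 for cip1, −8.71 for cip2, −1.66 for 22129 and −2.86 for 27554. Between sophorose and glucose they were −8.09 for cel61b, −5.04 for cel61a, −7.14 for swo1, −7.91 for cip1, −7.97 for cip2 and −1.21 for 22129. Between sophorose and cellulose they were 2.85 for cel61b, 2.53 for cel61a and 1.96 for 27554. No group had the 4 libraries that a test for a single distant library needs.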

How the results depend on the processing

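Of 2181 alternative values of single genes, 2095 kept direction and call, 34 lost the call, 19 gained it and 33 changed sign. The counts of 5 lower genes in the strain comparison held under every scaling, DESeq2, both filters, the fit of only the groups compared and the block. In glucose the count of 1 became 2 with RLE, upper-quartile or no factors, DESeq2 or no fold threshold, and 0 in the fit of only the groups compared, with 0 to 2 over left-out libraries. In QM9414 sophorose against cellulose it became 2 with no fold threshold. With library totals alone, 1 gene was called in Δxyr1 sophorose against cellulose (0 to 3 over left-out libraries) and 1 in the sophorose and cellulose interaction (1 to 3). Other counts moved by 1 gene at most, from 5 to 6 called in either direction between strains in cellulose and in sophorose, 6 to 7 in QM9414 sophorose against glucose, 4 to 3 in Δxyr1 sophorose against glucose, and 7 to 6 and 6 to 5 in the interactions of cellulose and of sophorose with glucose.

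Signs changed only for values that were not called. With library totals alone these were cip2 at −0.16 between strains in glucose, cel61a at 0.54 and cip2 at 0.45 in Δxyr1 cellulose against glucose, cip2 at 0.24 in sophorose against glucose and −0.21 against cellulose, and 22129 at −0.13 in the sophorose and cellulose interaction. Without both libraries rich in protein 48266 they were cip1 at 0.32 between strains in glucose, cel61b at −0.30 and cip1 at −0.26 in Δxyr1 cellulose against glucose, and cip2 at 0.60 in sophorose against glucose. Over left-out libraries the strain difference in glucose ran from −0.10 to 1.28 for cel61b and from −0.85 to 0.34 for cip1, and QM9414 values of 27554 against glucose from −0.83 to 1.03 in cellulose and −1.81 to 0.10 in sophorose. In Δxyr1 cellulose against glucose the ranges were −0.41 to 1.04 for cel61b, −0.79 to 0.23 for cel61a and −0.49 to 0.89 for cip1. In Δxyr1 sophorose against glucose they were −1.27 to 0.31 for cel61b, −0.34 to 1.39 for cip1 and −0.63 to 0.35 for cip2, and against cellulose −0.63 to 1.28 for cip1, −0.23 to 0.74 for cip2 and −0.24 to 0.022 for 22129. The interaction of cip1 ran from −0.12 to 1.80. The causes were not tested.

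No clear pairing of libraries by replicate number was seen, but a weak one remained possible. Correlations of same-numbered deviations ran from −0.262 to 0.437, with 17 of 40 over 0.1. Their median was 0.056, against −0.012 for the other pairs, and 9 of 17 libraries correlated best with their own number. The replicate block left 5 genes called in cellulose and in sophorose, turned 27554 in QM9414 cellulose against glucose to 0.050, and lowered the sophorose and cellulose interaction from 3 to 2.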

Other observations

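Counts were also set against cbh1, the most abundant cellulase gene of the list, within each group, which removes the scaling between libraries. There were 25.8 counts of cel61b per 100 counts of cbh1 in QM9414 in cellulose and 1.92 in sophorose. For cip1 the values were 6.59 and 4.22 in QM9414, 5.17 and 6.61 in Δxyr1, and 6.49 and 6.81 in glucose in QM9414 and Δxyr1, from counts summed over the libraries of a group. In single libraries the cip1 ratio ran from 3.88 to 6.28 in Δxyr1 cellulose, from 5.58 to 10.0 in Δxyr1 sophorose and from 4.41 to 83.3 in Δxyr1 glucose. For swo1 they were 5.19 and 6.77 in QM9414 and 18.6 and 35.9 in Δxyr1, with 69.5 and 146 in glucose. In single libraries the swo1 ratio ran from 12.6 to 28.5 in Δxyr1 cellulose, from 25.5 to 1250 in Δxyr1 sophorose and from 99.8 to 4833 in Δxyr1 glucose. Δxyr1 glucose replicate 1 and Δxyr1 sophorose replicate 3 held 6 and 10 counts of cbh1, fewer than the 207 to 903 of the other Δxyr1 libraries. The same libraries held 290 of the 967 swo1 counts in Δxyr1 glucose and 125 of the 489 in Δxyr1 sophorose. They therefore raised the group values of swo1 there.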
